A study of Mus musculus with 6 samples.

Results

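T and NK cells in the CD11b+ sort were the spinal cord cells of the EAE libraries that held RNA of the T cell receptor complex or of cytotoxic lymphocytes. The cells were chosen by measured values. A cell was taken when its unique molecular identifiers (UMIs, each counting 1 captured RNA molecule) of Cd3d, Cd3e, Cd3g, Lck and Nkg7 summed to 4 or more and its UMIs of the microglial genes Tmem119, P2ry12, Siglech, Sparc and Olfml3 summed to 2 or less. The rule chose 58 of the 7121 EAE cells, or 0.814%, out of 9078 cells in the series. Of these, 53 held 2 or more UMIs of Cd3d, Cd3e and Cd3g together and are called Cd3-positive, 5 held none and are called Cd3-zero, and 0 held exactly 1.

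The series profiled single cells of the mouse spinal cord by droplet sequencing of RNA 3' ends, with cells sorted by a fluorescent dye for reactive oxygen species (ROS). Experimental autoimmune encephalomyelitis (EAE) is a mouse model of multiple sclerosis, here induced with the myelin peptide MOG35-55 and sampled at disease onset. The groups were EAE ROS+, EAE ROS- and Healthy ROS-, with 2 libraries each. All mice were C57BL/6 and 10 weeks old, and all cells were incubated with 10 uM DCFDA, the ROS dye, and stained for CD11b, an integrin of myeloid cells and NK cells, before sorting. No genetic change is given in the labels, and they leave unstated if a group's 2 libraries were made from different mice. The p-values below therefore measure the spread between libraries, which may be technical.

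T cells recognise antigen through a receptor whose signal passes through the CD3 chains and the kinase LCK. In EAE, CD4 T cells that recognise myelin enter the spinal cord and release cytokines that act on the myeloid cells there, while NK cells carry no CD3 receptor complex and kill through granules loaded with granzymes. CD11b marks monocytes, macrophages, microglia and neutrophils, and part of the NK cells.

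T and NK cells were found mostly in the EAE ROS- libraries. There was 1 such cell among 1745 in EAE ROS+ replicate 1 and 3 among 2233 in EAE ROS+ replicate 2, against 26 among 1614 in EAE ROS- replicate 1 and 28 among 1529 in EAE ROS- replicate 2. The shares were 0.0573% (exact 95% interval 0.00145 to 0.319) and 0.134% (0.0277 to 0.392) in EAE ROS+, and 1.61% (1.05 to 2.35) and 1.83% (1.22 to 2.64) in EAE ROS-. Intervals cover counting error only, and the 2 groups did not overlap. The mean share was 0.0958% ± 0.0545 in EAE ROS+ and 1.72% ± 0.156 in EAE ROS- (SD, n = 2 libraries each), a difference of -1.63 percentage points. The exact two-sided permutation test gave p = 0.333, which is the smallest p that 2 against 2 libraries allow. The Healthy libraries held 0 of 1755 and 0 of 202 cells, which the exact intervals bound at 0.21% and 1.81%. In healthy libraries only 6 and 1 cells met the microglial bound, and no cell reached 4 rule UMIs at any microglial sum.

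**Figure D1:**
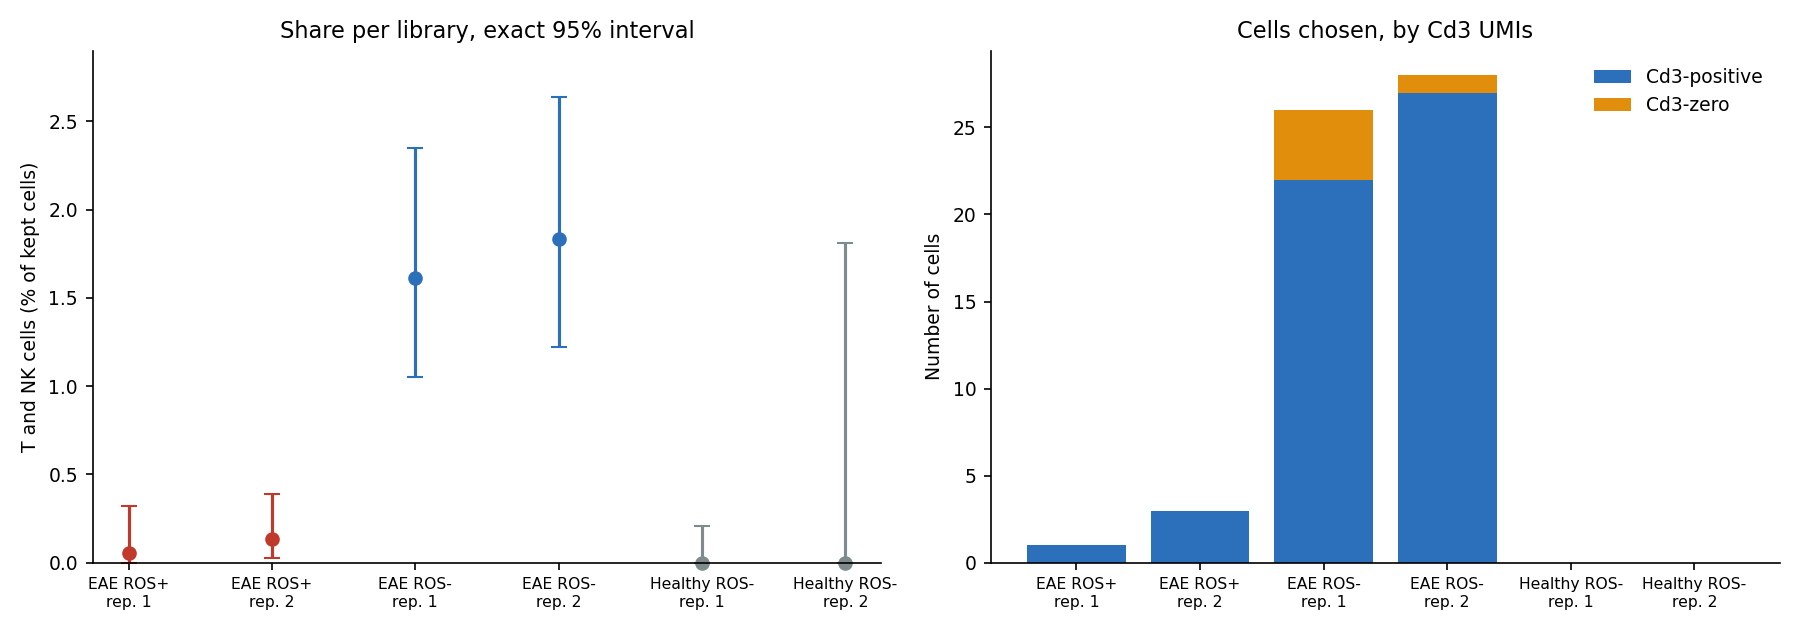
Left, the share of kept cells chosen as T and NK cells in each library, in percent, with the exact 95% interval. Right, the number of chosen cells, in blue with Cd3 UMIs and in orange without. The 2 EAE ROS+ libraries hold 1 and 3 cells, and the 2 EAE ROS- libraries hold 26 and 28, of which 4 and 1 are Cd3-zero.

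The rule used the summed UMIs themselves, so the values at its edges are a description. No EAE cell within the microglial bound had a sum of 4 or 5, and the lowest sum among the chosen cells was 6. Just outside, 1 cell had a sum of 3, 3 cells had 2 and 114 cells had 1. A further 25 EAE cells reached 4 rule UMIs but exceeded the microglial bound, 2 of them in EAE ROS+ and 23 in EAE ROS-. Their microglial sums ran between 3 and 154 with a median of 27, and their median depth was 26751 UMIs, against 5439 in Cd3-positive and 4022 in Cd3-zero cells. Of these 25 cells, 23 held 2 or more Cd3 UMIs and 2 held none. Whether they were T cells attached to, or captured with, another cell was not tested and no doublet caller was run. With them the share was 0.115% and 0.179% in EAE ROS+, against 2.60% and 2.29% in EAE ROS-.

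**Figure D2:**
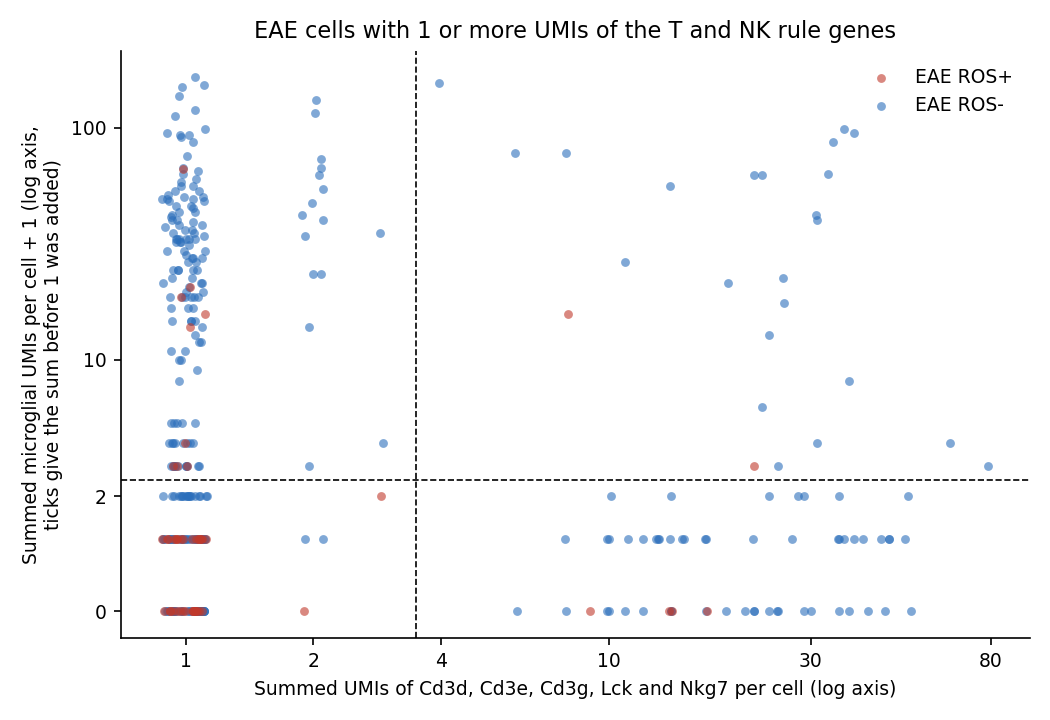
Each point is an EAE cell with 1 or more UMIs of the 5 T and NK rule genes, plotted by the summed UMIs of those genes (x, log axis) and by the summed microglial UMIs plus 1 (y, log axis), red for EAE ROS+ and blue for EAE ROS-. The dashed lines are the bounds of the rule, and the 58 chosen cells lie in the lower right, separated by a gap from the 118 cells with sums of 1 to 3 in the lower left.

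The name fitted the cells in part. Each of the 53 Cd3-positive cells held Cd3d (1 to 13 UMIs, median 5) and Cd3g (2 to 15, median 5), and 44 held Cd3e (up to 13), the 3 chains that carry the receptor's signal into the cell. These 3 genes are part of the rule. The 5 Cd3-zero cells had NK receptor genes that the rule did not use and are called NK-like. Of the 58 cells, 11 also carried 50 or more UMIs of 10 monocyte and macrophage genes per 10000, a level reached by 92.4% to 99.9% of the other cells of the EAE libraries.

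The promoters shown are those of Cd3g and Cd3d, which mark the T cells, of Gzma, which marks the NK-like cells, and of the cytokine gene Ifng. Of the 30 Cd3-positive cells that held Ifng, Csf2 or Il17a, 25 held Ifng. Cd3d, Cd3e and Cd3g lie together on chromosome 9. Cd3d (chr9:44981786-44987339, plus strand) and Cd3g (chr9:44969572-44980431, minus strand) are transcribed away from each other, with 1355 bases between their starts. Gzma lies at chr13:113093825-113100981 (minus strand) and Ifng at chr10:118441046-118445892 (plus strand); all are annotated as protein-coding in GENCODE on GRCm38. Each sequence runs 5′ to 3′ along the gene's own strand and spans 250 bases before to 50 bases after the RefSeq start (GRCm38.p6). The windows are chr9:44980382-44980681 for Cd3g, chr9:44981536-44981835 for Cd3d, chr13:113100932-113101231 for Gzma and chr10:118440796-118441095 for Ifng. Capitals mark matches, on either strand, to the letters TGTGGT of RUNX factors, AGGAAG of ETS factors, TCACAC of T-box factors, AGATAA bound by GATA factors, and TATAAA of the core promoter.
Cd3g: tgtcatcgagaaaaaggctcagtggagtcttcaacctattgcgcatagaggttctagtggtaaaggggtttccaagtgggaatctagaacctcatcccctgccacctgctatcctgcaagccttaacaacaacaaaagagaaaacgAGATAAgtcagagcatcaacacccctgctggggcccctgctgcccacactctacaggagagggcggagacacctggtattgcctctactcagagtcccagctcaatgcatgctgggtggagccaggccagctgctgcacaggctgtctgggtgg
Cd3d: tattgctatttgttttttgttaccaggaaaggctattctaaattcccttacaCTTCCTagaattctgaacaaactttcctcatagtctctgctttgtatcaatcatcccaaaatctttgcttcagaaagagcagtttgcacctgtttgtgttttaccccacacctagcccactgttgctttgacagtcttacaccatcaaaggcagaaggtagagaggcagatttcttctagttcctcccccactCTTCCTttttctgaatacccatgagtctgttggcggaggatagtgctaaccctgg
Gzma: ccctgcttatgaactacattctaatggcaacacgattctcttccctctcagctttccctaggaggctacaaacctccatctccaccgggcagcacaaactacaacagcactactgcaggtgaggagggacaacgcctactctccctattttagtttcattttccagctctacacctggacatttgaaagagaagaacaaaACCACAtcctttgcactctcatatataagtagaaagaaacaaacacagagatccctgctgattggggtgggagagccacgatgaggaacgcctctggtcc
Ifng: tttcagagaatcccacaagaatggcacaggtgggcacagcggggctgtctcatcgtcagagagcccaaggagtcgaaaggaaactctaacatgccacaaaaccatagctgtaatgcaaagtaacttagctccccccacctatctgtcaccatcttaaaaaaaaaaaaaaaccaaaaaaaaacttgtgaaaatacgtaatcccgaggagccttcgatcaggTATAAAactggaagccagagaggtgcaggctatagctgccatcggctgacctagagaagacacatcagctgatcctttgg
The Cd3g window held 1 GATA match and the Cd3d window 2 ETS matches, of which the nearer began 5 bases before the start. Gzma held 1 RUNX match 50 bases before its start, and Ifng held 1 TATA box 30 bases before its start. None of the 4 windows held the T-box letters. Among 32544 promoter windows of this length, RUNX letters were in 16.7%, ETS in 35.1%, T-box in 14.3%, GATA in 11.2% and the TATA box in 13.6%.

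Cd3g and Cd3d were at like levels in both EAE ROS- libraries and were measured in few cells of EAE ROS+. In the chosen cells Cd3g stood at 364 and 724 UMIs per 1000000 (CPM) in EAE ROS+ replicates 1 and 2 (1 and 3 cells), and at 863 and 865 CPM in EAE ROS- replicates 1 and 2. Cd3d stood at 182 and 603 CPM in EAE ROS+, and at 791 and 741 CPM in EAE ROS-. The EAE ROS+ values rest on 6 and 12 UMIs of Cd3g and on 3 and 10 UMIs of Cd3d. Lck, the kinase that starts receptor signalling, stood at 182 and 241 CPM in EAE ROS+, and at 444 and 341 CPM in EAE ROS-. Cd3e, with 60.7 and 422 CPM in EAE ROS+ and 497 and 223 CPM in EAE ROS-, differed more between libraries. These genes chose the cells, so their levels are a description.

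Genes of the receptor complex that the rule did not use were also present. Trbc2, a constant region of the receptor's beta chain, was held by 51 of the 53 Cd3-positive cells and Trbc1, the other, by 43. The 2 are near-identical, so the split of reads between them is uncertain. Trbc2 stood at 485 and 422 CPM in EAE ROS+, and at 1241 and 565 CPM in EAE ROS-. Lat, the scaffold that links the receptor to its downstream enzymes, was held by 50 cells, Thy1, a surface glycoprotein of T cells, by 48, and Cd2, an adhesion receptor, by 48. For comparison, 1469 EAE ROS- cells were taken that met the microglial bound but were not chosen by the rule. Each held 10 or more UMIs of the myeloid gene Lyz2, and their median depth was 6920 UMIs per cell. Of these cells, 0.272% held Trbc2 and 1.23% held Cd3d. Cd3d is a rule gene, and cells rich in rule UMIs were left out of this set. Its share there is thus set in part by the rule and is a description. All 20 genes of the receptor complex and signalling list were detected in the 58 cells, and their summed level had a median of 78.5 UMIs per 10000.

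The co-receptors divided the 53 Cd3-positive cells. Cd4, the co-receptor of helper T cells, was found in 27 of them, with at most 5 UMIs per cell, and in 0 of the 1469 Lyz2 cells. Cd8a or Cd8b1, the 2 chains of the killer T cell co-receptor, summed to 2 or more UMIs without Cd4 in 6 cells, of which 5 were in EAE ROS- replicate 1 and 1 in EAE ROS- replicate 2. The other 20 cells had neither, at a median of 4910.5 UMIs per cell, against 5499 in the Cd4 cells. Whether a co-receptor went undetected in these 20 cells was not tested. Of the 4 EAE ROS+ cells, 2 held Cd4 and 2 held neither. No UMI of Tcrg-C1, Tcrg-C2 or Tcrg-C4, constant regions of the gamma chain of the gamma delta receptor, was found in the 58 cells. Trdc, the constant region of the delta chain, was not among the measured genes.

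Helper cytokines were found in part of the T cells and were concentrated in few of them. Ifng, the macrophage-activating interferon, was held by 25 of 53 Cd3-positive cells, 12 in EAE ROS- replicate 1, 13 in EAE ROS- replicate 2 and 0 of the 4 in EAE ROS+. Of its 505 UMIs, 354 were in a single cell of EAE ROS- replicate 1 and 79 in another, and no other cell exceeded 9. In the Lyz2 cells Ifng was found in 1.23%. By co-receptor, 20 of 27 Cd4 cells, 1 of 6 Cd8 cells and 4 of 20 cells with neither held Ifng.

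Csf2, which encodes the myeloid growth factor GM-CSF, was held by 13 Cd3-positive cells with 165 UMIs, and 10 of the 13 also held Ifng. Il17a, the cytokine of the T helper 17 class, was found in 3 cells, with 72, 22 and 12 UMIs. The cell with 72 was the one with 354 UMIs of Ifng, and it also held 41 UMIs of Csf2, 45 of the T cell growth factor gene Il2 and 21 of the chemokine gene Xcl1. The other 2 Il17a cells, both in EAE ROS- replicate 2, held no Ifng. Together 30 of 53 cells held Ifng, Csf2 or Il17a. Il4, Il5, Il13, Il17f and Il22 had no UMI in the 58 cells, which allows at most 5.17% of such cells with a UMI.

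Xcl1 was found in 4 Cd3-positive cells, and 150 of its 267 UMIs there were in 1 Cd8 cell; 1 Cd3-zero cell held 2. Ccl4, a chemokine that attracts monocytes and T cells, had 507 UMIs in 20 Cd3-positive cells, of which 335 were in the cell with 79 UMIs of Ifng and 104 of Tnf. It was also found in 31.1% of the Lyz2 cells. Ccl5, of the same family, was in 44 of the 53 cells, but it was also in 95.8% of the Lyz2 cells, so its detection does not set the T cells apart. Cxcr6, a chemokine receptor of T cells in tissue, was in 40 of 53 Cd3-positive cells and in 0.136% of the Lyz2 cells.

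Foxp3, the defining factor of regulatory T cells, had 12 UMIs in 6 cells, 1 of them in EAE ROS+ replicate 2, 1 in EAE ROS- replicate 1 and 4 in EAE ROS- replicate 2. The 6 cells were deeper than the others (median 6938 UMIs, against 5439 in the 47 cells with no Foxp3 UMI). Il2ra, the high-affinity chain of the interleukin-2 receptor, stood at 605 CPM in the Foxp3 cells, against 42.1 CPM in the 47. Ctla4, an inhibitory receptor, stood at 756 CPM against 90.6 CPM, and Tnfrsf4, a costimulatory receptor, at 2319 CPM against 262 CPM. Gzmb, a granzyme, was held by 5 of the 6 Foxp3 cells, with 110 of the 129 UMIs in Cd3-positive cells, and by 6 of the 47. Among the 6 Foxp3 cells, 2 held Cd4 and 1 held Cd8a and Cd8b1. The cell with Cd8a and Cd8b1 had only 1 UMI of Foxp3, with 15 of Nkg7 and 29 of Gzmb. Cxcr6 and Ifng had no UMI in the 6 Foxp3 cells, against 149 UMIs in 40 cells and 505 UMIs in 25 cells of the 47. The split by Foxp3 was made after these values were seen, and none of it is tested. Of the lineage factors of helper cells, Tbx21 had 10 UMIs in 7 cells and Gata3 9 UMIs in 6 cells.

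**Figure D3:**
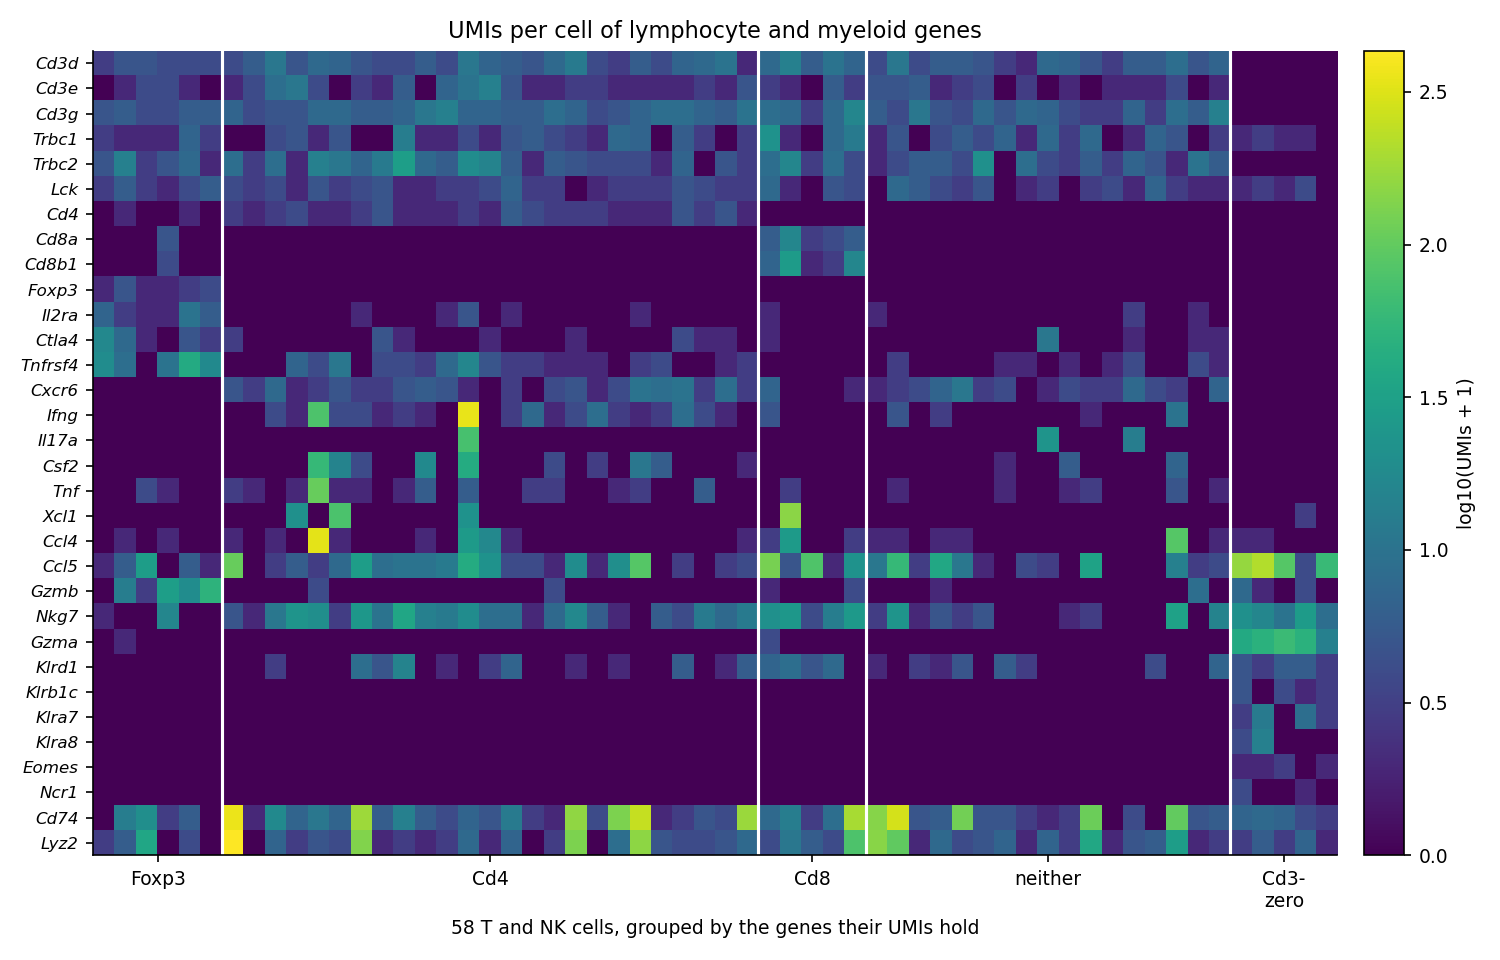
UMIs per cell, as log10(UMIs + 1), of 32 genes (rows) in the 58 T and NK cells (columns). From left to right the groups are 6 cells with Foxp3, then, without it, 25 with Cd4, 5 with Cd8 and 17 with neither, and last the 5 Cd3-zero cells; Gzma and the NK receptor genes fill the Cd3-zero columns, and Cd74 and Lyz2 are high in single columns across the groups.

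The 5 Cd3-zero cells had the genes of NK cells. They came from EAE ROS- only, 4 from replicate 1 and 1 from replicate 2, and had 3190 to 5793 UMIs each. Gzma, a granzyme of the killing granule, had 47, 39, 47 and 61 UMIs in the 4 cells of replicate 1 and 13 in the cell of replicate 2, against 4 UMIs in 2 of the 53 Cd3-positive cells. Nkg7, a granule membrane protein that also chose the cells, had 27, 20, 15, 9 and 8 UMIs.

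The receptors of NK cells followed. Klra7 had 23 UMIs in 4 of the 5 cells, Klra8 16 in 2, Klrb1c, which encodes the antigen NK1.1, 10 in 4, and Ncr1, an activating receptor, 4 in 2. Eomes, a transcription factor of NK cells and killer T cells, had 5 UMIs in 4 cells. None of these 5 genes had a UMI in the 53 Cd3-positive cells. Klra7 and Klra8 belong to a family of near-identical genes, so the split of reads among its members is uncertain. Trbc2 and Trac had no UMI in the 5 cells, and Trbc1 had 5 UMIs in 4 of them. Itgam, which encodes CD11b, had 1 UMI in the 5 cells, and Lyz2 had 1 to 6 UMIs per cell.

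Cd3-positive cells were then set against Cd3-zero cells over all genes in the 2 EAE ROS- libraries. UMIs were summed per library and subset, and 0.5 UMI was added to each sum. Of 2323 genes with 20 or more UMIs in all, 71 were more than 2-fold higher (3.06%) and 138 more than 2-fold lower (5.94%) in Cd3-positive cells in both libraries. The cells were split on their own counts, so no test was made. The Cd3-zero side of replicate 2 is a single cell of 3190 UMIs, in which the added 0.5 UMI stands for 157 CPM. Of the 138 lower genes only 79 had a UMI in the Cd3-zero cells of both libraries, and of the 71 higher genes 58 had none in the Cd3-zero cell of replicate 2 and 19 none in any Cd3-zero cell. With 1 UMI added the counts were 30 higher and 325 lower.

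Of 17 measured genes of the T cell receptor list, 5 were past 2-fold higher in Cd3-positive cells and 0 lower. Cd3d and Cd3g are among the 5, and with Cd3e they split the cells, so their direction was set in advance. The others, Trbc2, Lat and Cd2, were not used in the split. Cd3g had 144 and 147 UMIs in the Cd3-positive cells of replicates 1 and 2 and 0 in the Cd3-zero cells, which is at least 6.51-fold higher when the Cd3-zero cells together are set at 3 UMIs. Cd3d and Trbc2, also at 0 in the Cd3-zero cells, were at least 5.77-fold and 6.78-fold higher. Lat had 115 and 107 UMIs in Cd3-positive cells, against 3 and 0 in Cd3-zero cells, a ratio of 4.97 (exact 95% counting interval 1.68 to 24.3). Cd2 had 67 and 112 UMIs, against 3 and 0, a ratio of 4.00 (1.35 to 19.6). Cd3e, with 83 and 38 UMIs against 0, was at least 2.71-fold higher but did not pass the 2-fold rule in replicate 2.

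Of 7 measured NK genes, 5 were past 2-fold lower in Cd3-positive cells and 0 higher. Klra7 had 0 UMIs in Cd3-positive cells, against 21 and 2 in Cd3-zero cells, and was at least 114-fold lower when the Cd3-positive cells are set at 3 UMIs. Klrk1, the activating receptor NKG2D, had 11 and 8 UMIs, against 8 and 4, log2 ratios of -2.61 and -4.79. Il2rb, a chain of the interleukin-2 and interleukin-15 receptors, had log2 ratios of -1.75 and -3.50. Tyrobp, the adaptor of activating NK receptors and of many myeloid receptors, had -2.01 and -2.08. Klrd1, the CD94 receptor chain, had -1.10 and -1.88.

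Among 8 measured granule genes, 3 were lower and 0 higher in Cd3-positive cells. Gzma had 4 and 0 UMIs in Cd3-positive cells, against 194 and 13 in Cd3-zero cells, a ratio of 0.0013 over both libraries (0.00035 to 0.00337). Nkg7 had log2 ratios of -1.04 and -1.68. The rule helps to set these values, because a cell with no Cd3 UMI enters it only through Lck and Nkg7. Serpinb9, an inhibitor of granzyme B, had -2.36 and -2.01, the last from 0 UMIs in the single Cd3-zero cell of replicate 2. Of 13 cytokine and chemokine genes, Ccl4 and Ltb were higher and Ccl5 was lower. The Ccl4 value rests on 1 cell per library, with 335 of 414 UMIs in replicate 1 and 87 of 91 in replicate 2. Ccl5 had 483 and 228 UMIs in Cd3-positive cells, against 468 and 60 in Cd3-zero cells, which are 3245 and 1367 CPM against 26007 and 18809 CPM. Runx3, a factor of killer lymphocytes, was the 1 lower gene among 4 measured transcription factors, from 3 and 1 UMIs in Cd3-zero cells. Its ratio over both libraries, 0.57, has a counting interval that includes no change (0.203 to 2.21).

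Outside the lists, the largest ratios in both libraries were those of Ifi27l2a, an interferon-induced gene, Bcl2a1b and Bcl2a1d, survival genes of the BCL2 family, Capg, an actin-capping protein, Ifitm3, an antiviral membrane protein, S100a4, a calcium-binding protein, Ly6a, a surface antigen, and Cd74, the invariant chain of class II antigen presentation. Ifi27l2a had 167 and 272 UMIs in Cd3-positive cells and 0 in Cd3-zero cells, at least 9.82-fold higher. S100a4 had 202 and 158 UMIs, against 1 and 0, a ratio of 24.2 (4.31 to 957). Bcl2a1b and Bcl2a1d are near-identical copies, so the split of reads between them is uncertain. Cd74 had 906 and 990 UMIs, against 22 and 2, log2 ratios of 2.28 and 2.92. On the lower side, after Gzma, Klra7, Ccl5 and Klrk1, the rule named Pik3r1, a regulatory subunit of PI3 kinase, Irf8, an interferon regulatory factor, Satb1, a chromatin organiser, Pdcd4, Zfp292 and Mxd1. Irf8 had 23 and 48 UMIs in Cd3-positive cells, against 24 and 5, log2 ratios of -3.11 and -2.57. The other 5 had 5 to 16 UMIs in all Cd3-zero cells together.

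Myeloid RNA was uneven among the chosen cells. The 11 cells at 50 or more monocyte and macrophage UMIs per 10000 were all Cd3-positive, 2 in EAE ROS+ and 9 in EAE ROS-. They had a median of 11451 UMIs and 156 UMIs of Cd74, against 4774 UMIs and 4 UMIs of Cd74 in the other 47. The Cd3 sum was alike, with a median of 12 in the 11 cells and 11 in the 47. All 10 genes of the list were detected in the 58 cells. In the 47 cells Lyz2 stood at 643 and 599 CPM in the EAE ROS- libraries, which is 8.76% and 6.75% of its level in the rest of those libraries. Itgam UMIs were found in 18 of the 58 cells.

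Without these cells, 9 of which are in EAE ROS-, 3 of the 59 named genes changed sides between Cd3-positive and Cd3-zero cells. Lyz2 was past 2-fold higher in Cd3-positive cells with all cells (log2 1.57 and 2.52) and had a mean log2 ratio of -0.053 without these cells. Cybb, the subunit of the NADPH oxidase that carries electrons to oxygen, had log2 ratios of 1.63 and 1.43 with all cells and a mean of -0.52 without them. Sod2, the mitochondrial superoxide dismutase, had 1.26 and 2.05 and then -0.33. Cd74 kept its direction, with a mean log2 ratio of 1.41. Cd3g (4.07), Gzma (-8.93) and Ifi27l2a (4.52) also kept theirs. Whether these 11 droplets held a second cell was not tested.

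Because the gates were set by ROS, the genes that make and remove ROS were described in the same cells. The 7 genes of the NADPH oxidase list, which assemble the enzyme that makes superoxide, summed to 72.8 and 55.5 UMIs per 10000 in the T and NK cells of EAE ROS+ and to 36.0 and 38.2 in those of EAE ROS-. In the other cells of the same libraries they summed to 56.0 and 51.6 in EAE ROS+ and to 44.7 and 49.5 in EAE ROS-. The 11 scavenging genes summed to 92.8 and 64.6 in the T and NK cells of EAE ROS+ and to 33.1 and 50.4 in those of EAE ROS-, against 91.7, 109, 60.7 and 101 in the other cells of the 4 libraries. The EAE ROS+ values rest on 1 and 3 cells. The monocyte and macrophage list moved with them, at 331 and 122 in the T and NK cells of EAE ROS+ and at 64.7 and 50.3 in those of EAE ROS-, and its part in these levels was not tested.

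The same genes were then compared between gates in whole libraries, with the UMIs of all kept cells summed, whether or not the rule chose them. Cd3d, Cd3e, Cd3g, Lck and Nkg7, whose UMIs chose the cells, are among the genes compared. T and NK genes were lower in EAE ROS+ than in EAE ROS-. Of 75 genes of 8 lymphocyte lists that could be tested, 33 were lower (44.0%) and 0 higher at an adjusted p under 0.05 in edgeR's quasi-likelihood test with Benjamini-Hochberg adjustment over all 13631 genes. Over all genes, 2.04% were called lower and 0.125% higher. None of the 75 was higher at an unadjusted p under 0.05 in edgeR or DESeq2. The low-count filter needed enough UMIs in 2 libraries, of any group. A gene at 0 in EAE ROS+ was thus tested only through the other groups and could not come out higher. Of the 33 genes, 5 had 0 UMIs in EAE ROS+ and 5 had 1 to 3, so the filter helps to set the direction of this count. The median log2 change was -3.37 over the 75 genes and -0.01 over all genes tested. In such sums, fewer cells of a type and less RNA per cell cannot be told apart.

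Of 19 tested genes of the T cell receptor list, 11 fell. Cd3d stood at 0.523 and 1.08 normalised CPM in EAE ROS+, against 17.3 and 16.6 in EAE ROS-; Healthy ROS- libraries stood at 0.343 and 0. Its log2 change was -4.44 ± 0.40 (SE, adjusted p = 0.00192 by edgeR). Cd3g stood at 0.68 and 1.47 in EAE ROS+, against 17.5 and 19.8 in EAE ROS-, and fell by 4.16 on the log2 scale (adjusted p = 0.0031 by edgeR). The 2 gates did not overlap for either gene. Trbc2 (-4.90), Lat (-3.88) and Thy1 (-4.02) fell with the same adjusted p as Cd3g, and Cd3e fell by 4.17 with an adjusted p of 0.0151 in edgeR. Lck had a log2 change of -2.73 that did not pass the threshold (adjusted p = 0.0552 by edgeR). Cd4, the 1 co-receptor gene tested, fell by 3.88 (adjusted p = 0.0242 by edgeR).

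Of 12 tested cytokine and chemokine genes, 7 fell. Csf2 had 0 UMIs in EAE ROS+, against 310 in EAE ROS-, and was at least 145-fold lower when EAE ROS+ is set at 3 UMIs over the group (adjusted p = 0.00192 by edgeR). Il17a, with 0 against 120 UMIs, was at least 56.2-fold lower (adjusted p = 0.00679 by edgeR). Of the 120 UMIs, 106 lay in 3 chosen cells, with 72 in 1 of them. Tnfsf11, which encodes the cytokine RANKL, was at least 41.7-fold lower (0 against 89 UMIs). Ifng stood at 0.105 and 0.542 normalised CPM in EAE ROS+, against 47.2 and 11.1 in EAE ROS-, and fell by 6.61 on the log2 scale (adjusted p = 0.00916 by edgeR). In the chosen cells of EAE ROS- replicate 1, 354 of 457 Ifng UMIs lay in 1 cell. Cd40lg, the helper ligand of CD40, Lta and Ltb also fell.

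Of 9 tested granule genes 5 fell, and of 10 NK genes 5 fell. Nkg7 stood at 0.942 and 0.62 normalised CPM in EAE ROS+, against 43.1 and 19.4 in EAE ROS- (log2 change -5.27, adjusted p = 0.00264 by edgeR). Gzmb had 0 UMIs in EAE ROS+, against 168 in EAE ROS-, at least 78.7-fold lower, with an adjusted p of 0.0114 in edgeR and 0.547 in DESeq2. Gzma stood at 0.419 and 0 in EAE ROS+, against 25.3 and 3.05 in EAE ROS-, a log2 change of -5.82 with an adjusted p of 0.0468 in edgeR that was 0.551 in DESeq2 and 0.248 without EAE ROS- replicate 1. Without EAE ROS+ replicate 1 or 2 it was 0.0802 and 0.153. Klrd1 fell by 4.63 (adjusted p = 0.00192 by edgeR). Of the 6 tested genes of the regulatory T cell list, Tnfrsf4 and Tnfrsf18 fell, and of 9 checkpoint and costimulatory genes Lag3, Icos and Tnfrsf4 fell. Of 12 tested lymphocyte transcription factors, 0 passed the threshold in edgeR, 4 were lower at an unadjusted p under 0.05, and 1 was called lower in DESeq2. The median log2 change of the 12 was 0.16. Over all 13631 genes, 1708 had an unadjusted p under 0.05 in edgeR in either direction, and DESeq2 called 375 lower.

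**Figure D4:**
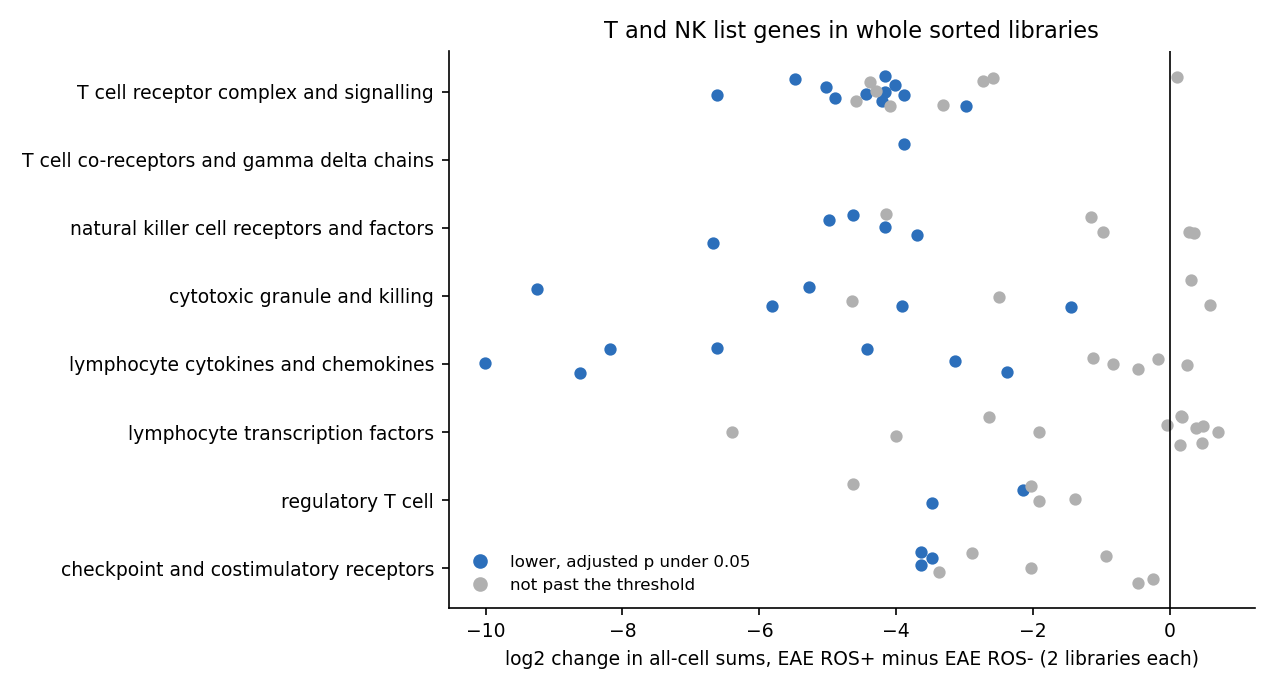
Log2 change in all-cell sums, EAE ROS+ minus EAE ROS- (2 libraries each), of the tested genes of 8 lymphocyte lists, with blue for genes at an adjusted p under 0.05 and grey for the others. The 33 called genes all lie left of 0, and the 12 transcription factors are all grey. The 4 points farthest left have 0 UMIs in EAE ROS+, so their fitted values depend on the added count.

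The chosen cells held much of the RNA of genes that the rule did not use. They held 65.2% of the Trbc2 UMIs, 64.2% of Thy1, 61.0% of Ifng, 83.3% of Gzmb and 88.3% of Il17a in the 2 EAE ROS- libraries. For the rule genes Cd3d, Cd3g and Nkg7 the shares were 58.9%, 61.0% and 59.0%, which the choice of cells helps to set. The 25 cells over the microglial bound held a further 29.2% of Cd3d, 31.4% of Cd3g and 40.6% of Csf2. Of the 33 genes called lower, 28 had at least 50% of their EAE ROS- UMIs in the chosen cells or these 25.

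A few genes of the lists were carried by other cells. Klrd1 had 16.7% of its UMIs, Serpinb9 5.89% and Lag3, an inhibitory receptor, 4.90% in the T and NK cells and the 25 cells together. Lag3 stood at 8.68 and 3.41 normalised CPM in EAE ROS+, against 113 and 40.2 in EAE ROS-. Its level was 188 and 152 in Healthy ROS-, where no T or NK cell was found.

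With the 58 cells left out of the sums, 19 of 59 tested lymphocyte genes were still called lower in edgeR, where 1.77% of all genes were. With the 25 cells left out as well, an alternative added after seeing the data, 3 of 44 were, Klrd1, Lag3 and Serpinb9, where 1.54% of all genes were. Of the 33 genes, 15 could still be tested then, and genes that lost the call kept large log2 changes: -3.56 for Cd3d (adjusted p = 0.0504 by edgeR), -4.90 for Ifng (0.0538), -3.52 for Nkg7 (0.0829), -3.03 for Cd3g (0.14) and -3.66 for Gzma (0.104). Leaving out EAE ROS- replicate 1 or EAE ROS+ replicate 1 left 1 library in a group, and fewer lymphocyte genes were called lower under either. Their median log2 change was -2.92 without EAE ROS- replicate 1 (70 genes tested) and -3.33 without EAE ROS+ replicate 1 (85 genes tested).

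**Figure D5:**
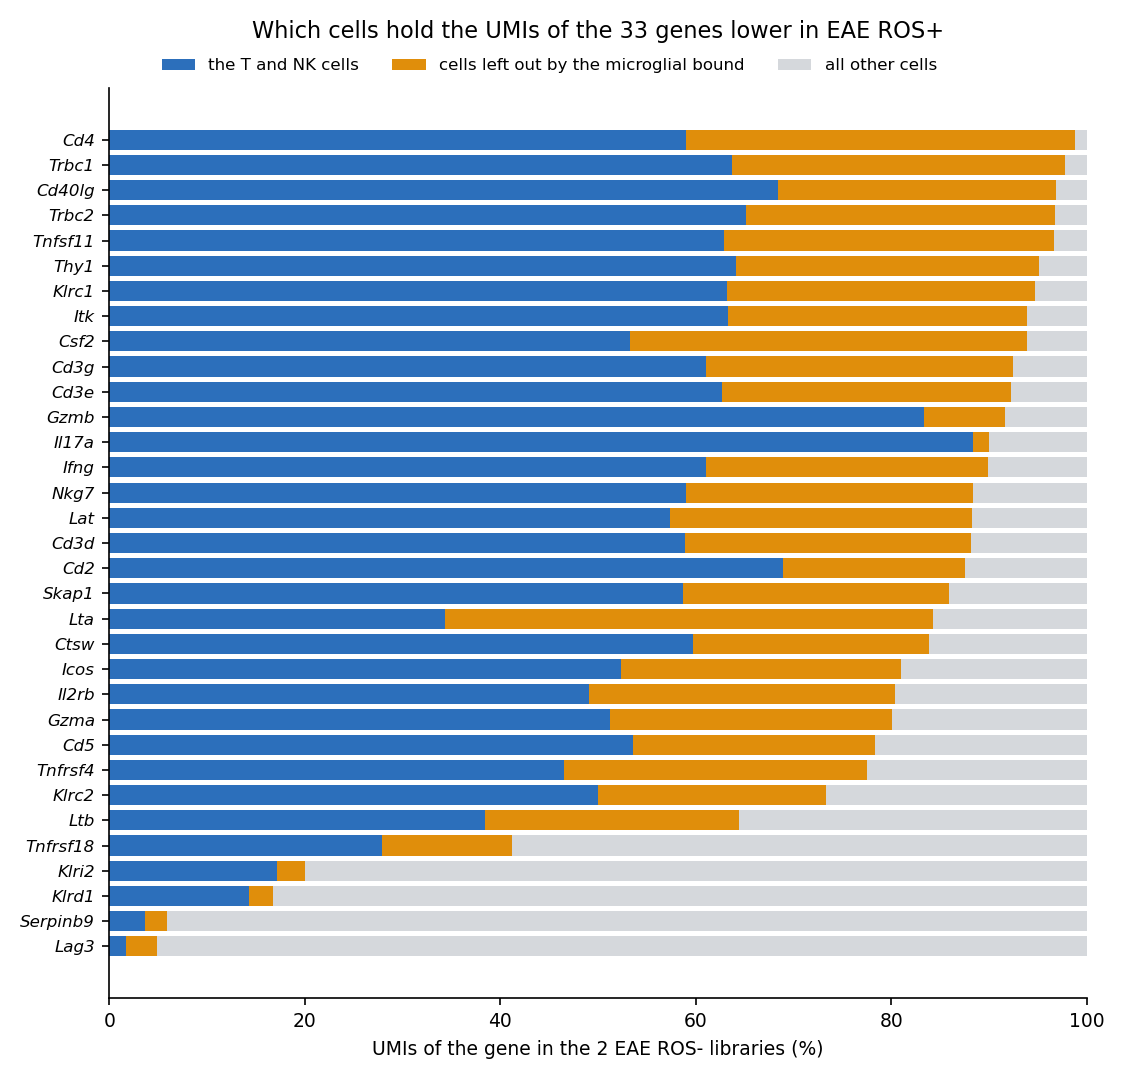
For each of the 33 lymphocyte list genes called lower in EAE ROS+, the percentage of its UMIs in the 2 EAE ROS- libraries that lies in the T and NK cells (blue), in the 25 cells left out by the microglial bound (orange) and in all other cells (grey). Cd4 has 98.8% in blue and orange together, and Lag3 has 4.90%.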

How the data were processed

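UMI counts per gene and cell were used as the authors deposited them, in 6 libraries. Cell Ranger 2.0.1, Seurat 3, R 3.4.2 and the mm10 build are named in the submitters' processing notes, without their roles; the library kit was a 10x 3' kit per the labels' protocols. The design text gives 8701 cells, and the files held 9079 barcodes, a difference of 378. A barcode was kept with at least 200 genes and no more than 10% of UMIs from mitochondrial genes; 1 failed. Library totals ran between 915197 and 23407825 UMIs, and any 2 libraries shared 0 to 7 barcodes.

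The cells, gene lists and tests were chosen with earlier results of these data known. Named genes were the rule genes and markers, up to 4 genes per list by the smaller ratio of the 2 libraries or by adjusted p, up to 10 genes per direction over all genes, and the lineage and cytokine genes. Counts of cells with a UMI outside that rule were chosen after seeing them. Gene symbols are those of the files. Sums over all kept cells of the 6 libraries were fitted with edgeR 4.0.16 (TMM, filterByExpr with a minimum count of 10, glmQLFit and glmQLFTest), with DESeq2 1.42.0 as an alternative. Alternatives were other bounds of the rule, thinning, other fold and count minimums, other normalizations, a replicate block, EAE libraries alone and single libraries left out. Scripts were tested on simulated data. No doublets were removed. Values of some list genes are not reported here.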

Additional observations from a re-analysis of the deposited data

How the results depend on the processing

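The share of T and NK cells stayed lower in EAE ROS+ under every alternative run, with differences of -0.641 percentage points at a microglial sum of 0, -0.955 with cells thinned to 1000 UMIs and -2.30 with no microglial bound. The share of Cd3-positive cells in EAE ROS- (90.5%) was 77.8% with a microglial sum of 0 and 63.0% after thinning. Replicates 1 and 2 correlated at 0.49 between EAE ROS+ and EAE ROS- in their deviations from the group means. With Healthy ROS- they correlated at -0.04 and 0.01. The labels do not say what libraries of the same replicate number share, so whether the number pairs the EAE libraries is not known. With the replicate number as a block the difference in share was again -1.63 points (exact sign-flip p = 0.5), and 46 lymphocyte genes were lower in edgeR, Lck among them (adjusted p = 0.0117; 3.80% of all genes); with the block over EAE libraries alone, 56 were lower and 1 higher (9.24% of all genes lower). Called lower were 63 genes of 104 with no filter on low counts, 19 without the T and NK cells, 3 without every cell at 4 or more rule UMIs, and between 17 and 41 leaving out single libraries. DESeq2 also called 33, of which 28 were the same genes.

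Between Cd3-positive and Cd3-zero cells, 71 genes were higher and 138 lower. At 3-fold these were 25 and 29, with 1 UMI added 30 and 325, with no microglial bound 21 and 370, and with single EAE ROS- libraries 172 to 307 higher and 81 to 324 lower. The lower genes were 5406 with no minimum count, 31 at 50 or more UMIs and 70 without the cells rich in monocyte UMIs, where Cybb (-0.52), Sod2 (-0.33) and Lyz2 (-0.053) changed sign. Fn1 did so with no microglial bound (0.25). With a microglial sum of 0, EAE ROS- replicate 2 has no Cd3-zero cell, so this comparison could not be made. The 5 Cd3-zero cells hold 21185 UMIs, in which a gene under 142 CPM falls below the limit of 3 UMIs. The cause of these shifts was not tested.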

Other observations

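Genes of movement and adhesion also differed in level within the T and NK cells of EAE ROS-. Of 13 measured genes of the homing list, 4 were past 2-fold lower and 1 higher in Cd3-positive than in Cd3-zero cells. Over all measured genes, 5.94% were lower and 3.06% higher, and none of this is tested. Selplg, the ligand through which lymphocytes roll on vessels, had 55 and 74 UMIs in Cd3-positive cells, against 21 and 8 in Cd3-zero cells, log2 ratios of -1.68 and -2.58. Itgal, the alpha chain of the adhesion integrin LFA-1, had log2 ratios of -1.79 and -2.60, and Itgb1 had -1.64 and -1.07. The Itgb1 ratio over both libraries, 0.44, has a counting interval that includes no change (0.217 to 1.01). Cxcr6 was the higher gene, with 62 and 80 UMIs against 0. Ccr7, which guides T cells to lymph nodes, was found in 3 of the 53 Cd3-positive cells, and S1pr5, a receptor of mature NK cells, in 0 of the 58 cells.

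Of the cell cycle genes, Mki67 and Top2a were found in few cells. Mki67 had 13 UMIs in 4 of the 58 cells and Top2a 25 UMIs in 9. All 58 cells held UMIs of the list, with a median of 8.85 and a highest value of 161 per 10000. The 15 cell cycle genes summed to 10.3 and 4.83 UMIs per 10000 in the T and NK cells of EAE ROS+ and to 18.6 and 19.1 in those of EAE ROS-. In the other cells of these libraries they summed to 7.18 and 6.88 in EAE ROS+, against 11.5 and 9.92 in EAE ROS-. All values for T and NK cells of EAE ROS+ in this paragraph rest on 1 and 3 cells. The 8 genes that respond to tissue dissociation summed to 72.8 and 76.6 in EAE ROS+ and to 35.2 and 41.3 in EAE ROS-; in the other cells of these libraries they summed to 66.0 and 66.9 in EAE ROS+, against 46.3 and 50.9 in EAE ROS-. B cell, dendritic cell and endothelial markers had medians of 0 per 10000 in the T and NK cells.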
